A study of Mus musculus with 26 samples.

Results

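Luminal cells of the mammary gland, sorted from Snai2-null mice, were compared at 12 and 3 months of age. The comparison rests on 4 of the 26 libraries of the series, chosen by their labels for genotype, sorted fraction and age and by no measured value. The genotype label of the null mice is Snai2-LacZ/LacZ, in which a LacZ reporter allele is present on both copies of Snai2, and the strain label is B6.129S1 for null and wild-type mice alike. The 12-month null luminal libraries are A5 and A6, and the 3-month ones are F82 and F84. The 4 wild-type luminal libraries, A1 and A2 at 12 months and F79 and F81 at 3 months, are set beside them. Glands were minced and frozen before dissociation, cells of 3 mice were pooled for each library, and luminal cells were taken by flow sorting on the surface proteins EpCAM and CD49f. RNA was measured by sequencing of amplified cDNA, as counts per gene. No treatment is named in the labels. Each age is carried by its own pools and the labels name no batch, so age and batch cannot be told apart. Spread in every test is that between pools, not between mice.

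Snai2 encodes Slug, a zinc-finger transcription factor of the Snail family that represses epithelial genes and is found mainly in the basal, myoepithelial layer of the gland. Luminal cells line the ducts and are known in 2 main kinds. Hormone-sensing cells carry the estrogen and progesterone receptors and signal to their neighbours, and secretory progenitor cells lack these receptors and give rise to the milk-producing alveoli. Immediate-early genes such as Jun and Egr1 are switched on within minutes of a growth signal or a stress, and the dissociation of tissue is a known trigger. Heat shock genes encode chaperones that refold proteins, and the unfolded protein response does the same work for the endoplasmic reticulum.

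The null libraries held 2951035 (F82) and 3085895 (F84) counts at 3 months, the lowest totals of the series, and 5442044 (A5) and 4961691 (A6) at 12 months. The series ran from 2951035 to 16649904. Mitochondrial ribosomal RNA took 22.2% and 24.4% of the counts at 3 months and 25.2% and 29.9% at 12 months. Snai2 had 0 counts in all 4 null luminal libraries, each of which allows up to 3 counts, and 4 to 13 counts in the 4 wild-type luminal libraries. Luminal wild-type cells thus held few Snai2 reads, and the check is a weak one in this fraction. Other fractions of the null pools were not all at 0. Pool F82 had 44 Snai2 counts in its library labelled Luminal-Basal and 4 in its Stromal one, and F84 had 0 in both. At 12 months the A5 Basal and A6 Stromal libraries had 1 count each. Wild-type basal libraries had 192 to 597 counts. The source of the F82 reads was not tested. Krt8 and Krt18, the keratins of luminal cells, lay at 349 to 1503 and 526 to 1394 CPM (counts scaled by library total with a TMM correction). Krt14 and Krt5, keratins of the basal layer, lay at 37.4 to 49.5 and 48.4 to 77.7 CPM, so the luminal label held. Library F84 stood apart from F82 for several genes, with 1503 against 512 CPM of Krt8 and 240 against 65.4 CPM of Cldn1, a tight junction protein, and values without each library are given below. The wild-type 12-month pools were also unlike each other. Their 15 milk protein and lactogenesis genes summed to 42253 CPM in A1 and 2723 CPM in A2. Their 16 mitosis genes summed to 39.5 CPM in A1 and 441 CPM in A2. All wild-type luminal values at 12 months below come from these pools.

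Genes were tested with edgeR's quasi-likelihood test, and a call required an adjusted p (Benjamini-Hochberg) below 0.05. In the main fit, which takes its estimate of spread from 24 libraries of all fractions, none of 17234 genes was called between 12-month and 3-month null luminal cells (0.0%). An unadjusted p under 0.05 was reached by 999 genes (5.8%), a share near the 0.05 that no difference would give. DESeq2 called 54 genes (30 higher, 24 lower at 12 months). The smallest adjusted p of the 24-library edgeR fit was 0.0765, for Atp2b1. A second fit took its spread from the 8 luminal libraries alone and called 68 of 13487 genes, 34 higher (0.252%) and 34 lower (0.252%) at 12 months. In that second fit 1650 genes (12.2%) had an unadjusted p under 0.05. Those 68 genes had the same direction in every alternative fit, and 65 of them had an unadjusted p under 0.05 in the 24-library fit. These fits reuse the counts by which the 68 genes were chosen, so both results were largely set in advance and are no separate evidence. In the 8-library fit the count of all genes called was 5 without A5, 4 without A6, 422 without F82 and 124 without F84. Of the 68 genes, 2 were called without A5, 3 without A6, 57 without F82 and 43 without F84. None was called in all 4 of those fits, so each call rests on at least 1 library. With the counts of every library thinned to 2951035 the 8-library fit called 73 genes, 60 of the 68 among them. The null fold changes below are log2 differences, 12 minus 3 months, with their standard errors from the 8-library fit, and "called" refers to that fit unless another is named. In each gene sentence the libraries come in the order F82 and F84, then A5 and A6.

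The immediate-early genes held the most called genes of any list, and 16 of 24 were above both 3-month libraries in both 12-month libraries, against 20.2% of all genes tested. A further 2 were below in both, against 17.2% of all genes. The median fold change of the list was 0.998 on the log2 scale, and that of all genes was 0.00398. Egr1, Dusp1, Junb and Btg2 were called higher, 4 of 24 against a background of 0.252%. In bulk RNA, more cells that express a gene and more RNA of it per cell cannot be told apart, here or below.

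The promoters of 3 of these called genes are shown because they show the sequence around the start of genes on which the stress result rests. No window is shown for Egr1, which was also called, and 19 of the 24 genes of the list were searched. They come from RefSeq on GRCm38.p6, run from 250 bases before to 50 after the transcription start, and are printed on the gene's own strand with the motif in capitals. Dusp1 (chr17:26508423-26508722, minus strand) and Btg2 (chr1:134079106-134079405, minus strand) each hold 1 cyclic AMP response element, TGACGTCA, from base 108 and base 85 of the window. Junb (chr8:84978699-84978998, minus strand) holds the letters TATAAA, those of a TATA box, from base 251, and no such response element. Base 251 is the first base after the 250 that precede the annotated start, so the match lies at that start and not upstream of it, where a TATA box is known to act.
Dusp1: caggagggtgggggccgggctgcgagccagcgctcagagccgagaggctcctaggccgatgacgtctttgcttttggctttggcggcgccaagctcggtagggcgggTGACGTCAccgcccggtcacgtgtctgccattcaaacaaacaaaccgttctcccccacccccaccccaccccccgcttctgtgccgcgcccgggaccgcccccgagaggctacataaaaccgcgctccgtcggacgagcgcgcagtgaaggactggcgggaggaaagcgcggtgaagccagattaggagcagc
Btg2: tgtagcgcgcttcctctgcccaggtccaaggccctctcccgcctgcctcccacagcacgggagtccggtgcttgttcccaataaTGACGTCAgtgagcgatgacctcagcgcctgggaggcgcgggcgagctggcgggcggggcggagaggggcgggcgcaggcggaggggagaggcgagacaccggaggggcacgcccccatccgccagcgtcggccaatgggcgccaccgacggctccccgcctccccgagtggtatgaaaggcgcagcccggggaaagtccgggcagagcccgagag
Junb: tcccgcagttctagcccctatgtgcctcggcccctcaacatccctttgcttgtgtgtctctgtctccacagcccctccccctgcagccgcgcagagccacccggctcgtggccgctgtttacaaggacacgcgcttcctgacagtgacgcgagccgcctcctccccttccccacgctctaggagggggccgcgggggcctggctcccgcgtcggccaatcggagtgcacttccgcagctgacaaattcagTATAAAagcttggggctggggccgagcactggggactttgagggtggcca
The cyclic AMP response element was in the window of 3 of the 19 immediate-early genes searched (Btg2, Dusp1 and Maff), and in 588 of 32851 promoters (1.79%). TATAAA was in 3 of 19 (Fos, Junb and Nr4a2) against 13.616% of promoters, and the AP-1 site TGANTCA was in 0 of 19 against 7.808%. Both strands were searched, no matches overlapped, and a match is a description of the letters and not of binding.

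Egr1, a zinc-finger transcription factor, lay at 742 and 1373 CPM at 3 months and at 3256 and 5884 CPM at 12 months. Both 12-month libraries were above both 3-month ones, a log2 difference of 2.11 ± 0.37 (edgeR adjusted p = 0.0337, and 0.500 in the 24-library fit). It was called in 6 of 20 alternative fits, with adjusted p-values from 3.28e-11 to 1. Dusp1, the phosphatase that switches off MAP kinases, lay at 351 and 514 CPM and then at 1285 and 1180 CPM. That is a difference of 1.51 ± 0.31 with no overlap (edgeR adjusted p = 0.0376, and 0.463 in the 24-library fit). Junb, a component of the AP-1 factor, lay at 117 and 151 CPM and then at 281 and 508 CPM (1.55 ± 0.30, edgeR adjusted p = 0.0339). Btg2, which restrains cell division, lay at 67.7 and 77.3 CPM and then at 166 and 216 CPM (1.39 ± 0.26, edgeR adjusted p = 0.0339). The ages did not overlap for any of these 4 genes, and A6 was the highest library for all but Dusp1.

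Jun, the other main AP-1 component, had the smallest unadjusted p among the genes higher at 12 months in the 24-library fit. It lay at 527 and 1356 CPM and then at 2565 and 5387 CPM, a log2 difference of 2.08 ± 0.43. It was not called (edgeR adjusted p = 0.0512, and 0.353 in the 24-library fit). Fosb, a partner of Jun in AP-1, lay at 1928 and 5317 CPM and then at 6424 and 7908 CPM, so that F84 sat close to the 12-month libraries (0.98 ± 0.40, edgeR adjusted p = 0.336). The list did not move as a whole. Egr3 was lower at 12 months, at 17.7 and 11.8 CPM and then at 4.03 and 5.00 CPM (-1.72 ± 0.41, edgeR adjusted p = 0.0731). Fosl2 lay at 504 and 319 CPM and then at 241 and 224 CPM, and Myc at 169 and 303 CPM and then at 271 and 211 CPM, where the ages overlapped. The plot of stress gene levels by library shows these values.

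**Figure D1:**
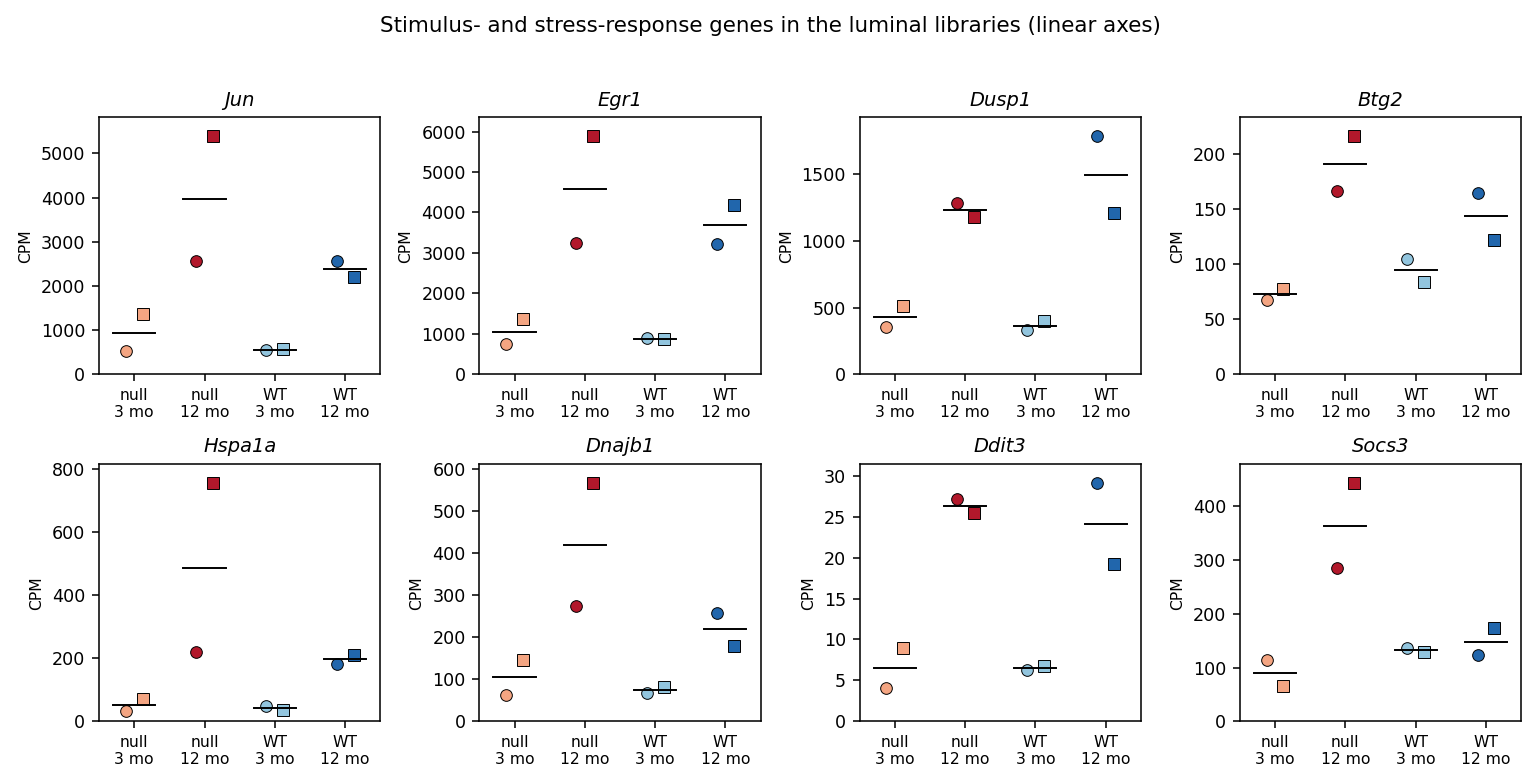
CPM of 8 immediate-early, heat shock and stress genes in the 8 luminal libraries, on linear axes, by genotype and age; each of the 2 pools is a circle or a square and each bar the group mean. In null cells both 12-month pools lie above both 3-month pools for all 8 genes; in wild type Socs3 lies at 123 and 174 CPM at 12 months and 136 and 129 CPM at 3 months.

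The summed level of the 24 immediate-early genes was 7616 and 17991 CPM in F82 and F84 and 22570 and 34651 CPM in A5 and A6. Wild-type luminal cells had 8050 and 8156 CPM at 3 months and 27001 and 21904 CPM at 12 months. There 20 of 24 genes were above and 2 below without overlap, against 22.0% and 21.9% of all genes. Other sorted fractions were also higher in level at 12 months. Wild-type basal libraries ran from 11300 to 16900 CPM at 3 months and from 20800 to 23000 CPM at 12 months, and wild-type stromal ones from 22000 to 26800 and from 39000 to 53300 CPM. The null stromal libraries had 25800 to 29700 CPM at 3 months and 38600 CPM in the 1 library kept at 12 months, A6. Among the stromal libraries in the fit, that library had the lowest sum of fibroblast genes, 16400 CPM. It also had the highest sum of luminal keratin, claudin and adhesion genes there, 1600 CPM. The part of cell handling in these values was not tested.

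Several regulators of growth signals were called, and they were named after their values were seen. Socs3, which shuts down cytokine signalling through JAK and STAT, lay at 113 and 66.5 CPM and then at 285 and 443 CPM (2.01 ± 0.31, edgeR adjusted p = 0.0337). It was 1 of 2 genes still called in 3 of the 4 fits that left out a null library. In wild-type cells Socs3 lay at 136 and 129 CPM at 3 months and at 123 and 174 CPM at 12 months, and the difference between the genotypes did not pass (edgeR adjusted p = 0.163). Irs1, the adaptor of the insulin and IGF receptors, lay at 33.6 and 40.4 CPM and then at 103 and 98.1 CPM (1.44 ± 0.27, edgeR adjusted p = 0.0337). Nab2, a co-repressor that binds the Egr factors, was among the genes called lower, at 58.2 and 39.1 CPM and then at 13.6 and 16.7 CPM (-1.69 ± 0.30, edgeR adjusted p = 0.0337). Thus Egr1 was called higher while its co-repressor was called lower in the same libraries. Gadd45b, a stress-induced growth arrest gene, lay at 11.3 and 25.2 CPM and then at 57.8 and 78.7 CPM (1.91 ± 0.36, edgeR adjusted p = 0.0342).

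Heat shock genes were higher at 12 months in level, and none was called. Of 13 genes 7 were above without overlap and none below, against 20.2% and 17.2% of all genes, with a median of 0.87. Hspa1a, the inducible Hsp70 chaperone, lay at 32.3 and 70.2 CPM and then at 218 and 755 CPM (3.25 ± 0.61, edgeR adjusted p = 0.0756). Hspa1b is a near-identical copy, and how reads were split between them is uncertain; it lay at 35.4 and 77.3 CPM and then at 169 and 449 CPM. Dnajb1, a partner of Hsp70, lay at 62.3 and 146 CPM and then at 273 and 565 CPM (2.01 ± 0.43, edgeR adjusted p = 0.0726). In all 3 genes A6 was the highest library. The 13 genes summed to 2981 and 5668 CPM at 3 months and to 5956 and 8572 CPM at 12 months. Library F84 was thus near A5. Wild-type luminal libraries summed to 2790 and 2580 CPM and then to 6391 and 5801 CPM, and 12 of 13 genes were above without overlap there, against 22.0% of all genes.

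Among the 15 unfolded protein response genes 10 were above and 1 below without overlap, against 20.2% and 17.2% of all genes, with a median of 0.38. Ddit3, the transcription factor CHOP, was called higher, at 4.10 and 9.01 CPM and then at 27.2 and 25.4 CPM (2.02 ± 0.40, edgeR adjusted p = 0.0376). Hspa5, the main chaperone of the endoplasmic reticulum, lay at 281 and 924 CPM and then at 1127 and 1409 CPM, which did not pass (edgeR adjusted p = 0.310). The gap between F82 and F84 at 3 months was wider than that between F84 and A5. In the 24-library fit 5 of the 15 genes were called higher in wild-type luminal cells (background 0.493%) and 0 in null cells. None of the 15 passed the test of the difference between genotypes, so a difference in response was not shown.

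The luminal keratin, claudin and adhesion genes lay lower at 12 months as a list, but not all of them did. In the 24-library fit 2 of the 17 genes had a positive fold change. Gata3, also on the list, was at 1.02 in that fit and was not called. Of 17 luminal keratin, claudin and adhesion genes 9 were below and 1 above without overlap, against 17.2% and 20.2% of all genes, with a median of -0.64. Ehf, an Ets transcription factor of epithelial cells (chromosome 2, 103263433 to 103303278, minus strand, protein-coding), was called lower. It lay at 140 and 143 CPM and then at 62.1 and 64.6 CPM, a log2 difference of -1.16 ± 0.24 (edgeR adjusted p = 0.0407, called in 4 of 20 alternatives). The pools of each age were close to each other. Ehf lay higher at 12 months in wild type and was not called there, at 113 and 110 CPM and then at 215 and 173 CPM. The difference between genotypes was -1.94 ± 0.34 and did not pass (edgeR adjusted p = 0.0751). Krt8 lay at 512 and 1503 CPM and then at 434 and 349 CPM (-1.36 ± 0.43, edgeR adjusted p = 0.199). Krt18 lay at 618 and 1394 CPM and then at 530 and 526 CPM (edgeR adjusted p = 0.295). Library F84 was the highest for both keratins. Without it the difference for Krt8 was -0.36 and the median of the list -0.15 in the 24-library fit, against -0.64 for the list with it.

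Secretory progenitor genes lay lower as a group. Of 18 genes 7 were below without overlap and 0 above, against 17.2% and 20.2% of all genes, with a median of -0.54. The list summed to 4484 and 4921 CPM at 3 months and to 3801 and 2272 CPM at 12 months. Sox10, a transcription factor of progenitor cells (chromosome 15, 79154908 to 79165240, minus strand, protein-coding), was called lower. It lay at 90.2 and 47.8 CPM and then at 25.2 and 18.9 CPM, a log2 difference of -1.66 ± 0.31 (edgeR adjusted p = 0.0339, and 0.601 in the 24-library fit). Wild-type luminal cells had 71.94 and 67.99 CPM and then 49.4 and 54.8 CPM, and the difference between genotypes did not pass (edgeR adjusted p = 0.316). Wfdc18, a secreted protease inhibitor, had pools of each age close together, at 258 and 267 CPM and then at 66.8 and 67.7 CPM. It was not called in the 8-library fit (-1.97 ± 0.485, edgeR adjusted p = 0.131), and wild-type libraries spread from 149 to 587 CPM. Mfge8, a milk fat globule protein, lay at 396 and 364 CPM and then at 246 and 105 CPM. Lcn2, an iron-carrier binding protein, lay at 1337 and 1268 CPM and then at 930 and 452 CPM. Neither passed the test, and in both A6 was the lowest library. Elf5 and Kit, also on the list, moved less, at -0.39 and -0.69 in the 24-library fit, and were not called. Elf5 was at 0.32 in that fit without F82. Of the 18 genes 1 had a positive fold change in the 24-library fit.

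Hormone-sensing genes lay higher at 12 months. Of 17 genes 11 were above without overlap and 1 below, against 20.2% and 17.2% of all genes, with a median of 0.79, and none was called. Esr1, the estrogen receptor, lay at 111 and 100 CPM and then at 137 and 177 CPM. Tbx3, a transcription factor of hormone-sensing cells, lay at 92.5 and 84.2 CPM and then at 127 and 185 CPM. Both 12-month pools were above both 3-month pools for each, by less than 1 on the log2 scale (0.56 ± 0.24 and 0.81 ± 0.26). Prlr, the prolactin receptor, lay at 2018 and 2294 CPM and then at 3531 and 2660 CPM, and Foxa1, the pioneer factor of the estrogen receptor, at 69.7 and 61.8 CPM and then at 109 and 130 CPM. Pgr, the progesterone receptor, lay at 145 and 262 CPM and then at 334 and 411 CPM. Areg, also on the list, went the other way, at -0.70 in the 24-library fit. In that fit 13 of the 17 genes had a positive fold change. The list summed to 3657 and 4359 CPM at 3 months and to 7265 and 5931 CPM at 12 months.

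In wild-type luminal cells the same list had 2 of 17 genes above and 8 below without overlap, against 22.0% and 21.9% of all genes, with a median of -0.43. Esr1 lay there at 143 and 161 CPM at 3 months and at 86.5 and 87.5 CPM at 12 months, and Tbx3 at 128 and 116 CPM and then at 63.2 and 77.0 CPM. The difference between genotypes was 1.39 ± 0.34 for Esr1 (edgeR adjusted p = 0.188) and 1.63 ± 0.36 for Tbx3 (edgeR adjusted p = 0.142), and neither passed. The plot of luminal gene levels by library places both genotypes side by side.

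**Figure D2:**
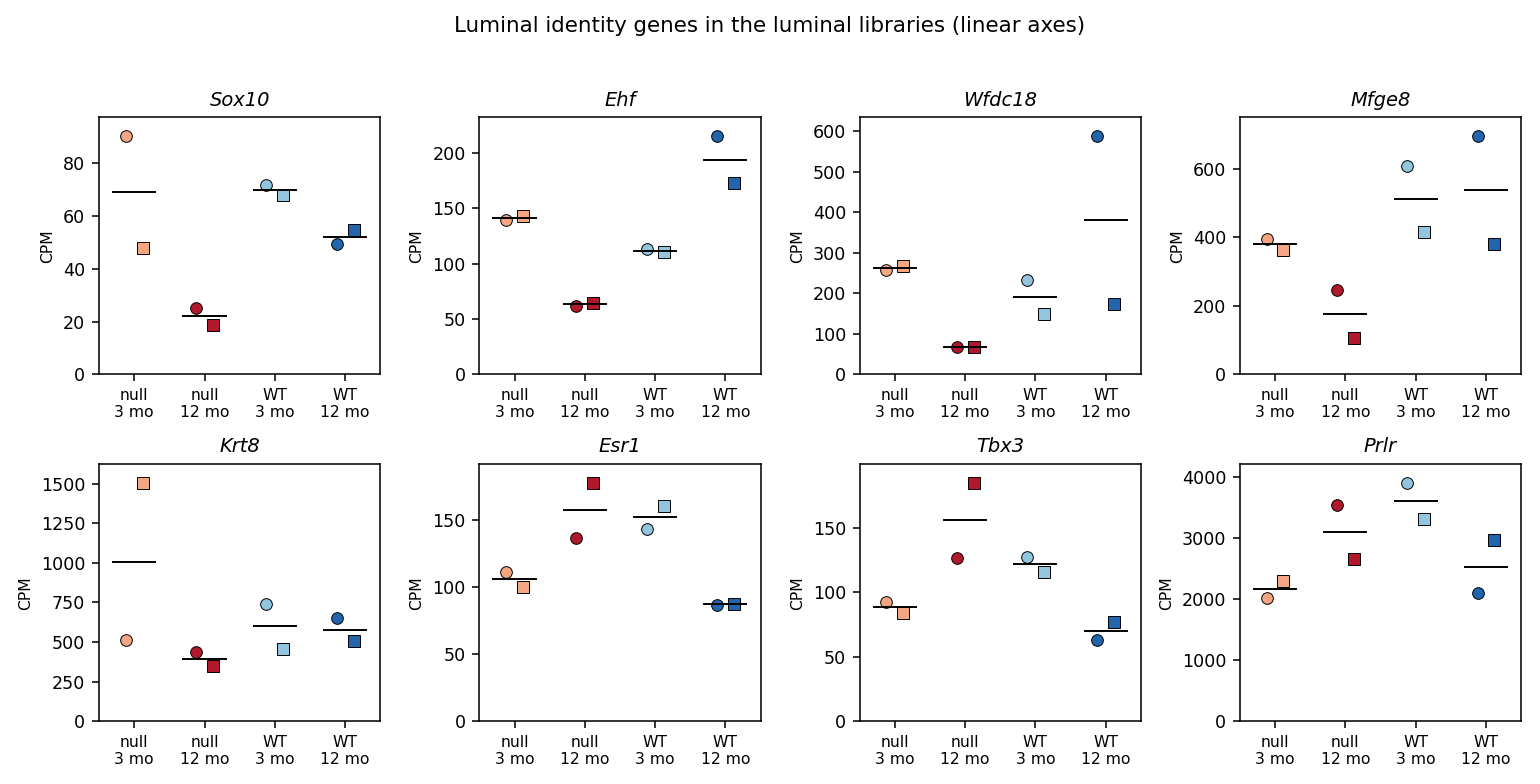
CPM of 8 luminal genes in the 8 luminal libraries, on linear axes, by genotype and age; each of the 2 pools is a circle or a square and each bar the group mean. In null cells Sox10, Ehf, Wfdc18 and Mfge8 are lower in both 12-month pools and Esr1, Tbx3 and Prlr higher; the 3-month null pools of Krt8 lie far apart at 512 and 1503 CPM.

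Genes of blood vessels lay higher in the 12-month null libraries. Of 12 endothelial genes 11 were above without overlap and 0 below, against 20.2% and 17.2% of all genes, with a median of 1.499. Pecam1, the adhesion molecule CD31, was called higher, at 13.1 and 12.7 CPM and then at 42.3 and 34.0 CPM (1.56 ± 0.31, edgeR adjusted p = 0.0376). Cdh5, the cadherin of vessel walls, lay at 4.87 and 8.70 CPM and then at 36.3 and 15.2 CPM (edgeR adjusted p = 0.0656). Pecam1 lay in wild-type luminal cells at 19.8 and 21.0 CPM and then at 18.1 and 14.3 CPM, and 7 of the 12 genes were below without overlap, against 21.9% of all genes. In the 24-library fit the difference between genotypes had an unadjusted p under 0.05 for 10 of 12 genes, against 5.62% of all genes. It was called for 0 of the 12. Cldn5, a tight junction protein that defines endothelium, was near 0 at 0.621 to 0.839 CPM in the 4 null libraries.

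Of the 9 pericyte genes, which mark the cells around small vessels, 3 were above and 1 below without overlap, against 20.2% and 17.2% of all genes. Rgs5, a pericyte regulator of G proteins, was called higher, at 31.0 and 25.5 CPM and then at 188 and 96.8 CPM (2.33 ± 0.37, edgeR adjusted p = 0.0337). Higd1b, another pericyte marker, had 0 CPM in all 4 null libraries. Fabp4, the fatty acid binding protein of adipocytes and capillaries, was called higher, at 21.5 and 19.3 CPM and then at 117 and 54.1 CPM (2.06 ± 0.36, edgeR adjusted p = 0.0337). It was the 1 called gene of the 6 adipocyte genes tested in that fit, against 0.252% of all genes called higher. Library A5 was the highest null library for each of Pecam1, Rgs5 and Fabp4. Adipoq, Plin1, Lep, Cidec and Retn, which define adipocytes, lay at 0 to 2.17 CPM in the null libraries. Jam2 and Adgrl4, surface proteins known from endothelium and on none of the lists, were also among the called genes. Jam2 lay at 13.6 and 6.21 CPM and then at 49.4 and 34.6 CPM, and Adgrl4 at 5.13 and 5.59 CPM and then at 32.4 and 17.7 CPM.

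The summed endothelial level was 95.9 and 77.6 CPM in F82 and F84 and 254 and 153 CPM in A5 and A6. The wild-type sums were 163 and 176 CPM at 3 months and 107 and 78.8 CPM at 12 months. The libraries labelled Basal of pools A5 and A6 held 3250 to 3410 CPM of the same 12 genes, and those of 12-month wild-type pools 633 to 860 CPM. The markers of the former go against their label. Their Krt14 was 10.1 and 25.05 CPM and their Krt5 32.5 and 32.8 CPM, below all 4 null luminal libraries, and their 20 basal genes summed to 3150 to 3530 CPM against 8630 to 22800 CPM in wild-type basal libraries. The pericyte sums were 205 and 139 CPM and then 378 and 218 CPM, beside 5130 to 5300 CPM in the 12-month null libraries labelled Basal. Every luminal library thus held less of both lists than those 2 libraries. The part of vessel cells in the sorted luminal fraction was not tested. The macrophage genes summed to 27.9 and 8.70 CPM and then to 35.8 and 22.1 CPM, where the ages overlapped. The lymphocyte genes summed to 29.7 and 3.11 CPM and then to 52.2 and 177 CPM.

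Fibroblast genes lay lower. Of 14 genes 9 were below and 2 above without overlap, against 17.2% and 20.2% of all genes, with a median of -0.44. Col1a1, the main chain of type I collagen, was called lower, at 49.0 and 62.1 CPM and then at 14.9 and 17.7 CPM (-1.77 ± 0.33, edgeR adjusted p = 0.0337). Wild-type luminal cells had 48.4 and 58.9 CPM and then 16.7 and 8.32 CPM, and Col1a1 was called lower there too (-2.12 ± 0.33, edgeR adjusted p = 0.004). The genotypes overlapped in level at both ages. The summed fibroblast level was 705 and 489 CPM and then 480 and 399 CPM in null cells, and 1182 and 1236 CPM and then 424 and 433 CPM in wild-type cells, where 14 of 14 genes were below without overlap, against 21.9% of all genes. The stromal libraries of the series held 16400 to 47600 CPM. Cxcl12 and Thy1 were the 2 fibroblast genes above. Of 18 matrix genes 6 were below and 1 above without overlap, against 17.2% and 20.2% of all genes, with a median of -0.49, and none was called.

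The basal and myoepithelial genes showed no shared direction in null cells. Of 20 genes 3 were above and 5 below without overlap, against 20.2% and 17.2% of all genes, with a median of -0.09, and none was called. Krt5 lay at 69.2 and 48.4 CPM and then at 56.4 and 77.7 CPM, and Krt14 at 49.5 and 37.9 CPM and then at 37.4 and 47.9 CPM. The ages overlapped for both keratins. Among wild-type libraries 16 of 20 genes were below without overlap, against 21.9% of all genes, with a median of -1.25, and Krt14 lay at 23.1 and 45.3 CPM and then at 6.22 and 9.68 CPM. The difference between genotypes was 2.08 ± 0.50 for Krt14 and did not pass (edgeR adjusted p = 0.176).

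**Figure D3:**
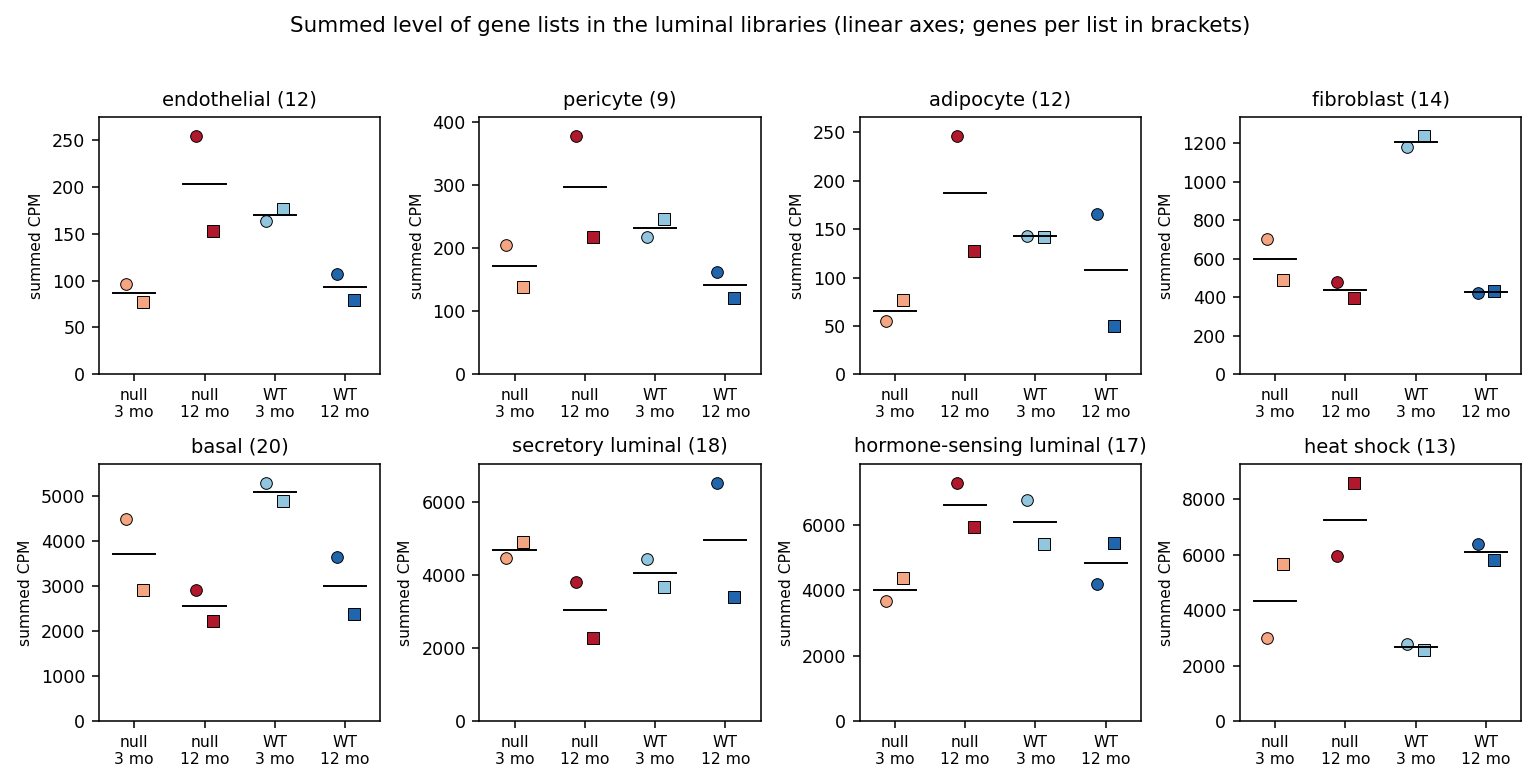
Summed CPM of 8 gene lists in the 8 luminal libraries, on linear axes, by genotype and age; each of the 2 pools is a circle or a square and each bar the group mean. The endothelial sum is higher at 12 than at 3 months in null cells (153 and 254 against 77.6 and 95.9 CPM) and lower in wild type (78.8 and 107 against 163 and 176 CPM).

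Further called genes include several that are on none of the lists described so far. They follow the naming rule in the 24-library fit or in the 8-library fit, and its use in the latter was decided with the values known. Atp2b1, the calcium pump of the plasma membrane (chromosome 10, 98914406 to 99026143, plus strand, protein-coding), was called lower. It lay at 166 and 254 CPM and then at 68.7 and 71.9 CPM (-1.58 ± 0.26, edgeR adjusted p = 0.0337, called in 7 of 20 alternatives). Wild-type cells had 168 and 154 CPM and then 180 and 151 CPM, and the difference between genotypes did not pass (edgeR adjusted p = 0.157). Ltbp1, which stores latent TGF-beta in the matrix, lay at 58.4 and 69.9 CPM and then at 26.5 and 16.7 CPM (-1.57 ± 0.29, edgeR adjusted p = 0.0337). Sh3pxd2b, a scaffold of podosomes, lay at 163 and 198 CPM and then at 58.6 and 68.3 CPM (-1.51 ± 0.25, edgeR adjusted p = 0.0337). Efhd2, a calcium-binding protein of the actin cytoskeleton, lay at 324 and 551 CPM and then at 151 and 106 CPM. For each of these genes both 12-month pools were below both 3-month pools. Other genes called lower included Cttnbp2nl, Spaca6, Slco1a5, Pitpnm1, Fam167a and Fam83a, with log2 differences from -3.22 to -1.50. Rhoj, a small GTPase, lay at 104 and 41.9 CPM and then at 19.0 and 9.62 CPM and was not called (edgeR adjusted p = 0.0756).

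Among the genes higher at 12 months, Igf2, the insulin-like growth factor, lay at 3.08 and 6.52 CPM and then at 32.1 and 27.5 CPM (2.65 ± 0.42, edgeR adjusted p = 0.0337). Fam46c, a poly(A) polymerase, lay at 4.36 and 10.6 CPM and then at 39.6 and 32.5 CPM (2.29 ± 0.37, edgeR adjusted p = 0.0337). In wild type Igf2 lay at 5.81 and 5.37 CPM and then at 30.9 and 18.8 CPM, and Fam46c at 4.19 and 3.69 CPM and then at 62.2 and 52.3 CPM. Both were called higher there as well. Lsmem1, Tnr, Mblac2, Pir and Fam71a, each at most 10.5 CPM in either 3-month null pool, were called higher with log2 differences from 2.28 to 2.94. Fbxo33, an F-box protein, lay at 5.896 and 9.32 CPM and then at 25.9 and 25.8 CPM (1.77 ± 0.35, edgeR adjusted p = 0.0376). Mblac2 and Pir were called in none of the 4 fits that left out a null library.

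The null and wild-type comparisons share no library. In the 24-library and in the 8-library fit, however, both take the spread of a gene from the same estimate, so their calls are not independent. In wild-type luminal cells the 24-library fit called 85 genes higher (0.493%) and 30 lower (0.174%) at 12 months. Scaling moved that split, to 54 and 32 with RLE and to 56 and 32 without mitochondrial genes. The 8-library fit called 196 higher (1.45%) and 82 lower (0.608%). Of the 68 genes called in null cells 25 were also called in wild type, 36.8% of the null and 8.99% of the wild-type calls, and all 25 had the same direction. Of the 34 genes higher in null cells 20 were called higher in wild type, Egr1, Dusp1, Ddit3, Gadd45b, Igf2 and Fam46c among them. Of the 34 lower genes 5 were called lower in wild type, Col1a1 and Synpo among them. By sign alone 57 of 68 went the same way in both genotypes, a count given without the share by sign of all genes. Of all 17234 genes tested, 1005 were above and 827 below without overlap in both genotypes. Another 646 were above in null and below in wild type, and 501 the reverse. Across the 17234 genes tested the fold changes correlated weakly (r = 0.143), a description over genes, which are not independent replicates.

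**Figure D4:**
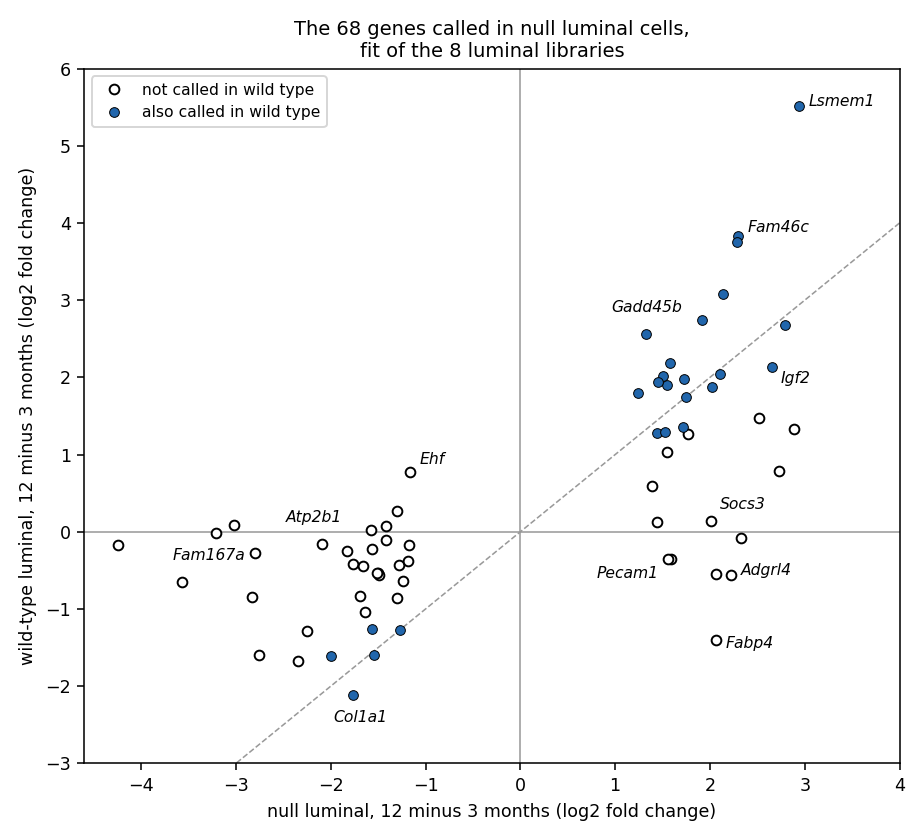
Log2 fold change from 3 to 12 months in null (x axis) against wild-type (y axis) luminal cells for the 68 genes called in null cells, 8-library fit; filled points are also called in wild type. The 25 filled points lie where both fold changes have the same sign, and 57 of the 68 points have the same sign on both axes.

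The test of the difference between genotypes called 0 of 17234 genes in the 24-library fit (0.0%). There 968 genes (5.62%) had an unadjusted p under 0.05, a share near that threshold, and DESeq2 called 45. The 8-library fit had 1508 genes (11.2%) with an unadjusted p under 0.05 and called 2 of 13487 genes (0.0148%), Cav1 and Fabp4. Cav1, the coat protein of caveolae (chromosome 6, 17306335 to 17341452, plus strand, protein-coding), lay at 71.3 and 51.2 CPM and then at 147 and 110 CPM in null cells. Wild-type cells had 161 and 153 CPM and then 63.6 and 42.2 CPM, so the 12-month pools lay above the 3-month pools in null cells and below them in wild type. The difference was 2.65 ± 0.40 (edgeR adjusted p = 0.0356, and 0.317 in the 24-library fit). For Fabp4, wild-type cells had 66.0 and 63.1 CPM and then 30.7 and 18.8 CPM, and the difference was 3.46 ± 0.50 (edgeR adjusted p = 0.0356, and 0.489 in the 24-library fit). Each was called in 8 of 27 alternatives. In the 8-library fit both lost their call without A5, F79, F81 or F84, with adjusted p-values up to 0.311 for Cav1 and 0.219 for Fabp4. Both genes are strongly expressed in endothelium, and the endothelial sums given above moved with them; their part in these values was not tested.

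The smallest p-values of that test in the 24-library fit also fell on Fgd5, Cxcl12, Tns1 and Zswim6, none of them called. Fgd5, an exchange factor known from endothelial cells, lay at 2.56 and 4.35 CPM and then at 12.8 and 11.3 CPM in null cells, and at 7.10 and 7.89 CPM and then at 1.61 and 1.94 CPM in wild type (edgeR adjusted p = 0.104 in the 24-library fit). Cxcl12, a chemokine of stromal cells, lay at 20.8 and 16.8 CPM and then at 45.2 and 27.1 CPM in null cells, and at 23.1 and 42.6 CPM and then at 10.4 and 5.61 CPM in wild type. Zswim6, a zinc-finger protein, had the opposite pattern, at 63.3 and 103 CPM and then at 59.6 and 43.3 CPM in null cells and at 25.5 and 35.1 CPM and then at 145 and 97.4 CPM in wild type. For all 3 genes the wild-type ages did not overlap.

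Genes often followed with age showed no call. Of 11 cell-cycle inhibitor and senescence genes tested 2 were above and 0 below without overlap, against 20.2% and 17.2% of all genes, with a median of 0.05. Cdkn1a, the inhibitor p21, lay at 181 and 357 CPM and then at 342 and 214 CPM, with the ages overlapping. Cdkn2a, which encodes p16 and p19ARF, had 0 counts in all 4 null libraries, each of which allows up to 3 counts. Of 16 mitosis genes 1 was above and 5 below without overlap, against 20.2% and 17.2% of all genes. Mki67, a proliferation marker, lay at 31.0 and 72.0 CPM and then at 7.22 and 88.9 CPM. Csn2, the milk protein beta-casein, lay at 72.5 and 897 CPM and then at 215 and 1926 CPM. For these 3 measured genes the pools of 1 age differed more than the ages did, and the differences between ages were not detectable with 2 pools each.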

How the data were processed

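RNA of sorted mammary cells was amplified from 5 ng with the NuGEN Ovation V2 kit and made into TruSeq Nano libraries, per the labels' protocols. The submitters' processing notes name TopHat2 2.0.13, HTSeq and the GRCm38 build; the counting options and the use of strand were not given in the sources used here, so overlapping genes cannot be separated. The deposited values are whole-number counts of 45706 genes, and 45143 matched the GENCODE vM21 annotation. Library totals of the 8 luminal libraries ran from 2951035 to 6751898 counts.

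From these counts CPM was computed on TMM-scaled library sizes and is not corrected for gene length. The main fit was edgeR's robust quasi-likelihood test on 24 libraries in 13 groups, leaving out 2 libraries of pool A5 (Luminal-Basal and Stromal) whose markers go against their labels. The 2 null libraries labelled Basal, A5 and A6, also have low basal markers; they stayed in this fit, and a fit without them and the A6 Stromal library was an alternative. Genes were kept by filterByExpr (minimum count 10, total 15) and adjusted by Benjamini-Hochberg over all genes tested. Alternatives were RLE scaling, no filter, all 26 libraries, the 8 luminal libraries, only the libraries compared, DESeq2, no mitochondrial genes, the pool as a replicate block (limma voom, correlation 0.116) and each library left out. A filter over 2 libraries, thinning to equal depth, further libraries left out and each library left out of the 8-library fit were chosen after seeing the data. The block pairs fractions of the same pool; the ages share no pool. Scripts were tested on simulated data. There the 8-library fit recovered 94 of 100 4-fold and 96 of 100 8-fold changes and called 20 unchanged genes. Those 20 were a larger share of its calls than the 0.05 set by the threshold, so its adjusted p-values were too small in that simulated set. The 24-library fit recovered 43 and 88 of 100 and called 7 unchanged genes.

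The libraries compared and the 42 gene lists were chosen with earlier results of these data known. Genes were named by a rule: up to 12 largest called changes in each direction with at least 10 CPM and no overlap, filled to 6 by smallest p; the 5 smallest p-values of the difference between genotypes; up to 4 members per list, called ones first and otherwise those of highest CPM; and a short list always looked at, such as Snai2, Krt8 and Esr1. Numbered gene models were left out. Other names were chosen after their values were seen. Promoters are from RefSeq. The software was Python 3.11.15 with pandas 2.3.3 and matplotlib 3.10.9, and DESeq2 1.42.0, limma 3.58.1 and edgeR 4.0.16 under R 4.3.3.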

Additional observations from a re-analysis of the deposited data

How the results depend on the processing

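Genes called in null luminal cells numbered 0 with all 24 libraries and also with RLE scaling, all 26 libraries, only the 4 libraries compared, no mitochondrial genes, the filter over 2 libraries, thinning and without 3 further null libraries; the counts were 155 with no low-count filter, 68 with the 8 luminal libraries, 73 with those thinned, 54 with DESeq2, and 0 to 1 with 1 library left out. In the 8-library fit they were 5 without A5, 4 without A6, 422 without F82 and 124 without F84. In wild-type cells 115 became 86 with RLE scaling, 478 with no filter, 3 with all 26 libraries, 278 with the 8 luminal libraries, 550 with only the libraries compared, 287 with DESeq2, 88 without mitochondrial genes, 82 with the filter over 2 libraries, 56 thinned, 244 with the 8 luminal libraries thinned, 147 without 3 further null libraries, and 1 to 13 with 1 library left out. The 8-library fit gave 187 without A1, 258 without A2, 45 without F79 and 6 without F81. The difference between genotypes gave 200 with no filter, 2 with the 8 luminal libraries, 3 with those thinned, 45 with DESeq2, and 0 to 6 with 1 library left out. In the 8-library fit it gave 13 without A1, 43 without A2, 5 without A6, 528 without F82, and 0 without A5, F79, F81 or F84. With the pool as a replicate block the counts were 0 in null cells, 55 in wild type and 0 for the difference. The filter, the libraries in the fit and the tool each changed counts; the cause was not tested. Leaving out mitochondrial genes moved the median of all genes to 0.12 for the difference between genotypes. Single genes with small or uneven differences changed direction. Leaving 1 library out of the 24-library fit gave log2 differences of -0.329 to 0.64 for Cdkn1a, -1.11 to 3.89 for Csn2, -0.819 to 0.32 for Elf5, -0.194 to 0.21 for Krt14, -0.0269 to 0.51 for Krt5, -2.77 to 0.79 for Mki67 and -0.286 to 0.54 for Myc. The 8-library fit gave -0.336 without A5 and -0.369 without F82 for Cdkn1a, -1.16 without A6 for Csn2, and 0.270 without F82 for Elf5. It gave 0.126 without A5 and 0.162 without F82 for Krt14, and -0.0629 without A6 and -0.0485 without F84 for Krt5. For Mki67 it gave 0.784 without A5 and 0.620 without F84, for Myc -0.166 without A5 and -0.337 without F82, and Krt14 was 0.0288 with no filter. Of 110 genes recomputed under these alternatives the other 103 kept their direction. Genes given only by levels near 0 were not recomputed. The mitochondrial list without its own genes, and muscle and red blood cell genes in fits of only the libraries compared or of 8 thinned libraries, gave no median. List medians kept their sign in 21 of 21 fits for the luminal keratin, hormone-sensing, secretory, fibroblast, endothelial, immediate-early and heat shock lists, in 20 for adipocyte and in 19 for pericyte and basal genes. The 3-month null libraries are the shallowest, which limits genes of few counts.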

Other observations

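Genes encoded by the mitochondrial genome lay higher in 12-month null luminal cells, and none was called. Of 12 tested 11 were above without overlap and 0 below, against 20.2% and 17.2% of all genes, with a median of 0.59. Wild-type luminal cells also lay higher, with 8 above and 1 below, against 22.0% and 21.9% of all genes, and a median of 0.86. Their sums were 17866 and 24493 CPM at 3 months and 37650 and 38521 CPM at 12 months. The null sums were 15513 and 18526 CPM and then 26542 and 26268 CPM. mt-Co1, a subunit of cytochrome oxidase, lay at 3477 and 4226 CPM in F82 and F84 and at 5299 and 5364 CPM in A5 and A6. Nuclear genes of the respiratory chain had 5 of 20 above and 2 below without overlap, near the 20.2% and 17.2% of all genes, with a median of 0.00466. Mitochondrial ribosomal RNA, given in the opening, was also higher in both 12-month null libraries, and its part in these values was not tested.

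Of 17 fatty acid synthesis genes 3 were above and 5 below without overlap, against 20.2% and 17.2% of all genes, with 8 of 17 positive and a median of -0.26, so the list had no shared direction. The 3 desaturases among the 5 lower genes were chosen after their values were seen. Fads2, a desaturase, lay at 60.8 and 27.9 CPM and then at 11.1 and 16.4 CPM, and Fads1 at 107 and 76.7 CPM and then at 42.8 and 38.3 CPM. Scd1, the stearoyl desaturase, lay at 312 and 176 CPM and then at 96.9 and 92.5 CPM. None passed the test (edgeR adjusted p = 0.0578 for Fads2, 0.0806 for Fads1 and 0.104 for Scd1). In wild-type luminal cells the 12-month pools lay at 35.1 and 36.2 CPM for Fads2 against 31.6 and 19.1 CPM at 3 months, and the ages overlapped for Fads1 and Scd1.

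Of 19 TGF-beta pathway genes 5 were above and 2 below without overlap, against 20.2% and 17.2% of all genes, and Ltbp1 was called lower, as above. Tgfb2, a ligand of the pathway, lay at 23.8 and 42.5 CPM and then at 11.9 and 10.003 CPM, and Id3, a target of BMP signals, at 18.7 and 23.3 CPM and then at 44.99 and 66.7 CPM. Neither passed the test. Antigen presentation genes had 7 of 16 above and 2 below without overlap, against 20.2% and 17.2% of all genes. B2m, the light chain of class I MHC, lay at 453 and 420 CPM and then at 698 and 950 CPM, and it also lay higher in both 12-month wild-type pools, at 977 and 761 CPM against 492 and 403 CPM.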
